A study of Mus musculus with 10 samples.

Results

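Complement is a cascade of plasma and tissue proteins that marks microbes, dead cells and debris for removal. In its classical branch, C1q binds a target, the proteases C1r and C1s that ride on it cut C4 and C2, and the enzyme so formed cleaves C3, the protein on which all branches converge. In the alternative branch, factor D, a protease made mostly by fat cells, activates factor B on deposited C3. C1 inhibitor, a serpin, inactivates C1r and C1s. The liver makes most of the circulating proteins, whereas C1q comes chiefly from macrophages, and fibroblasts and other stromal cells can make C1r, C1s, C3, C4 and C1 inhibitor in tissues. The genes followed here are 9 of the 29564 genes listed, chosen by symbol: C1qa, C1qb and C1qc (the chains of C1q), C1ra and C1s1 (the C1 proteases), C3, C4b, Cfd (factor D) and Serping1 (C1 inhibitor).

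Their RNA was measured in the left ventricle of 5 control and 5 HFD+mTAC animals, all of them male wild-type C57BL/6J mice. The labels give vehicle as the treatment of both groups, but describe its dosing, daily at 10 mL/kg for 6 to 9 weeks, for HFD+mTAC mice only. At 11 weeks of age, HFD+mTAC mice had moderate transverse aortic constriction (mTAC), a banding of the aorta that raises the load on the left ventricle. They were then fed a high-fat diet (HFD, 60% of kilocalories from fat) until they were killed. Induction took 16 weeks, after which dosing began in the study. The aim was to model heart failure in which ejection fraction is kept (HFpEF). Control mice had no constriction and ate chow with 10% of kilocalories from fat, so diet and operation cannot be told apart. Whole ventricular tissue was used, and each library came from a different mouse, named here as in the labels (TT-583 to TT-587 control, TT-588 to TT-592 HFD+mTAC).

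Levels between mice are given as CPM, counts scaled to a common total over the 13298 protein-coding genes tested, after TMM scaling of library sizes. Levels between genes are given as TPM, which also divides by transcript length. Depth was 34.2 to 53.7 M counts per mouse, of which mitochondrially encoded genes took 43.8 to 52.7%. The cardiomyocyte list summed to 20619 ± 1881 TPM in control and 17319 ± 1379 in HFD+mTAC mice and the atrial list to 1.79 ± 0.51 and 1.03 ± 0.13 (SD, n = 5 each). Both lists were lower in HFD+mTAC mice before adjustment (two-sided exact permutation test, p = 0.0159 and p = 0.00794) and not after adjustment over 26 values (adjusted p = 0.206 for each). In TPM renormalized over the genes tested, neither list kept the unadjusted difference (cardiomyocyte p = 0.183, atrial p = 0.0635, same exact test). In CPM the atrial list lost it (p = 0.143, same exact test). The cardiomyocyte list kept it in CPM, with a log2 ratio of -0.22 (p = 0.00794, same exact test, not adjusted). The median gene was 0.12 lower in HFD+mTAC mice on the log2 scale of deposited TPM and did not shift in CPM (0.00), so TPM differences between the groups are to be read against that shift.

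The C1q chains lie side by side on chromosome 4 of GRCm38, all on the minus strand within 18.7 kb: C1qb from 136880129 to 136886187, C1qc from 136889804 to 136893065 and C1qa from 136895917 to 136898803. RefSeq promoter windows of GRCm38.p6 were at hand for C1qb, C1qc, C1ra, C1s1, C3 and Cfd. The sequences upstream of C1qb and C1qc are shown because these neighbours had nearly parallel levels over the mice (below), with capitals at the letters of AGGAAGT, a core bound by ETS factors such as PU.1 of macrophages, which both hold on the opposite strand. C1qb is given at chr4:136886201-136886450 and C1qc at chr4:136893066-136893164, minus strand, 5′ to 3′, and the C1qc stretch stops where the gene of the GENCODE annotation begins.
C1qb: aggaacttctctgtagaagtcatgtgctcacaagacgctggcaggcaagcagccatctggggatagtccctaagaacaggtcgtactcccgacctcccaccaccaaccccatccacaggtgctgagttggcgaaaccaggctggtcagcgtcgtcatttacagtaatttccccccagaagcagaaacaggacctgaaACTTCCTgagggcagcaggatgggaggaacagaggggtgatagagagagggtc
C1qc: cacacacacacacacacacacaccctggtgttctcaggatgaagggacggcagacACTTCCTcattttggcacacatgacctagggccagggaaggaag

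Counted from the RefSeq start sites, the letters began 53 bases upstream for C1qb and 195 bases upstream for C1qc. For C1qc that start site lies inside the GENCODE gene, so the letters are nearer to that gene's 5′ end at 136893065 than to the RefSeq start. On either strand they occur in 9.35% of the 32851 promoter windows of 300 bases in the same table. The motifs were chosen after the sequences were seen, and the match is a description of letters, not a bound site. In the other windows, TTGCNNAA (a C/EBP form, 10.8% of all windows) was found for C1ra, C1s1 and C3, TTCNNNGAA (a STAT form, 8.30%) for C1ra, and TATAAA (13.6%) for C3. The interferon-stimulated response element (ISRE, 3.44%) matched no window of these genes. Among the windows of these genes, AGGAAGT was found only in those of C1qb and C1qc, so it could not overlap the other matches.

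None of the 9 genes followed here differed detectably between HFD+mTAC and control ventricles, and few of all genes tested did. Of the 9 genes, 8 passed the filter on low counts, and 0 of these 8 passed an adjusted p of 0.05 in edgeR's quasi-likelihood test, where 0.0602% of all genes tested did (8 of 13298). At an unadjusted p of 0.05 the count was 0 of 8, against 8.26% of all genes, and DESeq2 also called 0 of 8, against 0.902%. No member had groups that did not overlap, which 1.96% of all genes had. The difference was above 0 for 6 of the 8 and below 0 for 2, with a median log2 difference of 0.04 against 0.00 over all genes. In whole tissue, fewer cells of a type and less RNA per cell cannot be told apart.

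**Figure D1:**
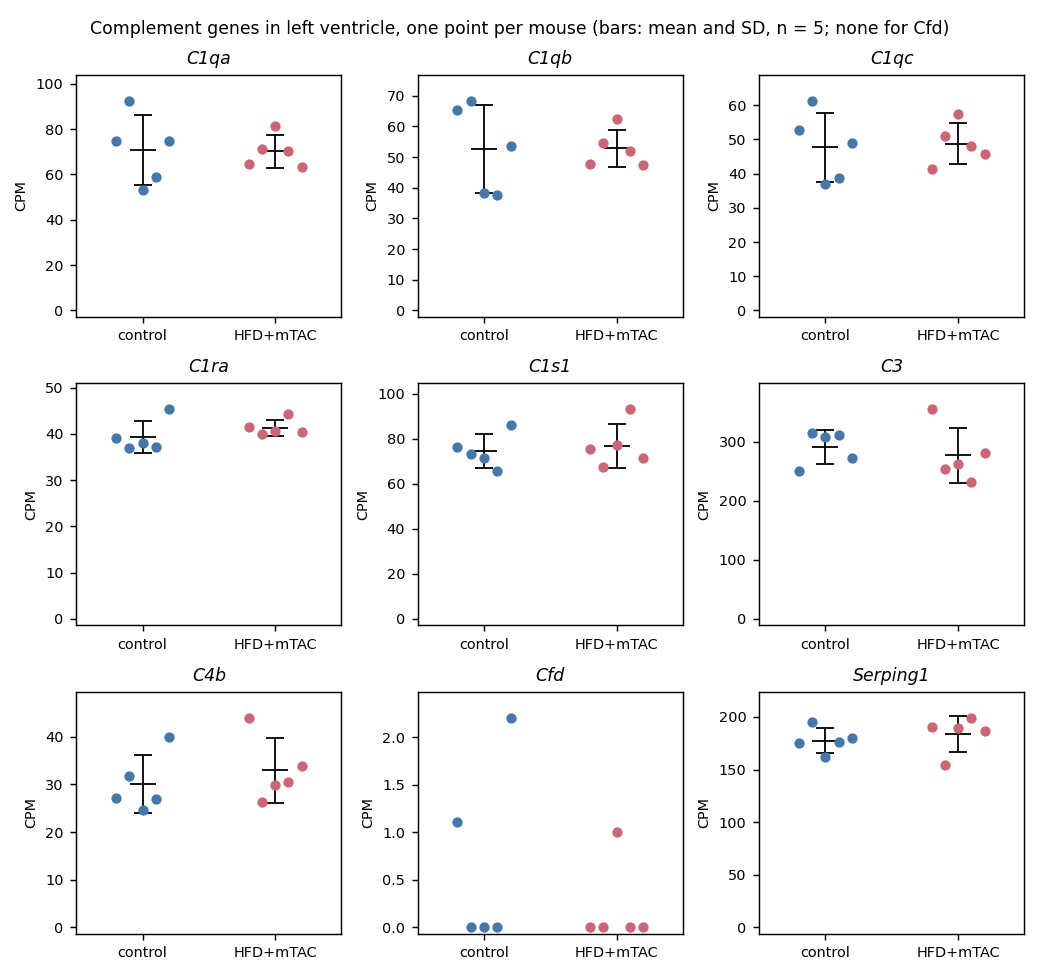
CPM (vertical axes, each from 0) of the 9 complement genes in 5 control (blue) and 5 HFD+mTAC mice (red), 1 point per mouse, with mean and SD as bars except for Cfd. The groups overlap in every panel, and Cfd lies above 0 in 3 of the 10 mice.

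C1qa was at 74.9, 92.5, 53.0, 59.1 and 74.6 CPM in the control mice (in the order TT-583 to TT-587) and at 64.6, 71.1, 81.5, 70.2 and 63.2 CPM in the HFD+mTAC mice (from TT-588 to TT-592), and the other genes are given in the same order. All 5 HFD+mTAC mice lay within the range of the control mice. The means were 70.8 ± 15.4 and 70.1 ± 7.25 CPM (SD, n = 5 each), a log2 difference (HFD+mTAC minus control) of -0.01 (standard error, SE, 0.14, edgeR adjusted p = 0.99), and the 95% interval of the fold ran from 0.805 to 1.22.

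C1qb was at 65.3, 68.4, 38.3, 37.7 and 53.6 CPM in control mice and at 47.8, 54.6, 62.4, 52.0 and 47.3 CPM in HFD+mTAC mice. Again the HFD+mTAC mice sat inside the control range, with control mice TT-583 and TT-584 high and TT-585 and TT-586 low. On the log2 scale the groups differed by 0.00 (SE 0.17, adjusted p = 0.999 from edgeR), with an interval of 0.778 to 1.29 for the fold.

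C1qc was at 52.9, 61.3, 37.0, 38.8 and 48.9 CPM in control mice and at 41.3, 51.0, 57.4, 48.1 and 45.9 CPM in HFD+mTAC mice. The order of the mice was close to that for the other chains, with TT-584 highest and TT-585 lowest. edgeR gave a log2 difference of 0.03 (SE 0.14, adjusted p = 0.979), with an interval of 0.825 to 1.26.

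The chains of C1q, which assemble in equal numbers, kept nearly fixed ratios from mouse to mouse. The TPM of C1qa was 1.64 ± 0.11 times that of C1qb (SD over 10 mice, range 1.41 to 1.83), that of C1qb 1.51 ± 0.11 times that of C1qc (range 1.41 to 1.76) and that of C1qa 2.48 ± 0.22 times that of C1qc (range 2.21 to 2.93). None of these ratios differed detectably between the groups (two-sided exact permutation tests, p = 0.619, p = 0.413 and p = 0.714, each with an adjusted p of 0.843 over 26 values). In CPM, which uses no lengths, the same ratios were 1.35 ± 0.10, 1.09 ± 0.07 and 1.46 ± 0.06 (SD over 10 mice). Deposited lengths of C1qc were 1358 to 1598 bases, above the 1203 of its longest annotated transcript. The size of the ratios therefore depends on the length used.

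Over the 10 mice, log2(TPM + 1) of C1qa and C1qb had a Pearson r of 0.975 and a Spearman rho of 1.00 (permutation p = 1e-05 for each, the smallest that 100000 permutations can give, adjusted p = 0.00011). C1qa with C1qc gave r = 0.935 and rho = 0.891 (permutation p = 6e-05 and 0.00114, adjusted 0.00022 and 0.00506 over 11 relations), and C1qb with C1qc r = 0.963 and rho = 0.891 (permutation p = 5e-05 and 0.00138, adjusted 0.00022 and 0.00506). Without the 2 mice farthest from the median, r was 0.984, 0.867 and 0.894. After subtraction of each group's mean, r was 0.976, 0.935 and 0.966, so the parallel levels were those of mice within groups.

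The spread between mice was wider in controls: the coefficient of variation of C1qa was 21.8% in control and 10.3% in HFD+mTAC mice, that of C1qb 27.5% and 11.6%, and that of C1qc 21.1% and 12.35%. Since the chains moved together, these are not separate observations, and the difference in spread was not tested.

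The macrophage list of 16 markers, which holds no member, was set beside the C1q chains. Its summed TPM was 22.6 ± 5.90 in control and 18.7 ± 2.14 in HFD+mTAC mice (SD, n = 5 each; two-sided exact permutation test, p = 0.262). All 16 markers passed the filter and 0 passed an adjusted p of 0.05 in edgeR, where 0.0602% of all genes did. An unadjusted p under 0.05 was found for 1 of the 16, Pf4, against 8.26% of all genes (log2 fold change -0.40, edgeR adjusted p = 0.597). Summed over the list, the level followed the mean of the C1q chains with r = 0.872 and rho = 0.842 (permutation p = 0.00172 and 0.0035, adjusted 0.00473 and 0.00962 over 11 relations). Without the 2 mice with the most extreme list levels r was 0.577, and the relation in TPM therefore rests in part on control mice TT-583 and TT-584. It was 0.923 after centring each group and 0.896 in CPM without the 2 extreme mice. TT-583 and TT-584 were also the highest mice in the fibroblast list, at 180 and 172 TPM. The same held for the adipocyte list (7.42 and 7.46 TPM) and the smooth muscle list (41.4 and 41.0 TPM). The C1q chains were not set against those lists, so whether the relation in TPM is particular to macrophages was not tested.

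**Figure D2:**
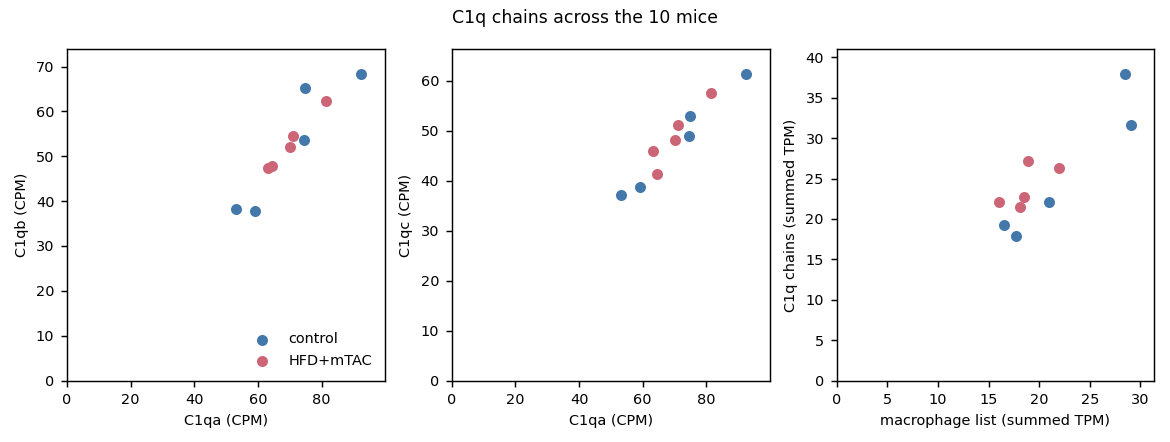
Left and centre, CPM of C1qb and C1qc against CPM of C1qa; right, summed TPM of the C1q chains against that of the macrophage list, with 1 point per mouse (blue control, red HFD+mTAC). The chains rise together in both groups, and in the right panel 2 control mice stand at the upper end.

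Among 10051 genes with a mean of at least 5 CPM, the patterns most like each chain over the 10 mice, each group centred on its mean, were for the most part the other chains and the chemokine gene Ccl9. For C1qa they were Ccl9 (r = 0.975), C1qc (0.968) and Ccl6 (0.944). For C1qb they were C1qc (0.960), Ccl9 (0.958) and C1qa (0.941), and for C1qc they were C1qa (0.968), Ccl9 (0.964) and C1qb (0.960). The best of so many genes over 10 mice has a high r in any case, so these are given as descriptions.

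C1ra and C1s1 lie next to each other on chromosome 6 within 30.0 kb, C1ra on the plus strand from 124512405 to 124523443 and C1s1 on the minus strand from 124530345 to 124542359. C1ra was at 39.0, 36.8, 38.0, 37.1 and 45.3 CPM in control mice and at 41.4, 39.9, 40.6, 44.2 and 40.4 CPM in HFD+mTAC mice. The HFD+mTAC mice were within the control range, whose upper end was mouse TT-587 alone. On the log2 scale the groups differed by 0.07 (SE 0.08, adjusted p = 0.879 from edgeR), and the interval of the fold, 0.931 to 1.19, was the narrowest of the members.

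C1s1 was at 76.3, 73.1, 71.4, 65.8 and 86.0 CPM in control mice and at 75.4, 67.3, 77.3, 93.1 and 71.4 CPM in HFD+mTAC mice. Mouse TT-591 was above the control range and the other 4 within it. edgeR gave a log2 difference of 0.05 (SE 0.10, adjusted p = 0.943), with an interval of 0.887 to 1.20 for the fold.

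In CPM the C1 proteases kept a ratio of 1.88 ± 0.12 (C1s1 to C1ra, SD over 10 mice, range 1.69 to 2.11), and their log2(CPM + 1) had r = 0.81 and rho = 0.685 (permutation p = 0.00534 and 0.0354, adjusted 0.0117 and 0.0778). Without the 2 mice farthest from the median r was 0.438, so this relation rests on those mice. In TPM the same ratio ran from 1.75 to 4.93 (2.91 ± 1.04, SD) and the relation was not detected (r = 0.414, rho = 0.285, permutation p = 0.226 and 0.429, adjusted 0.276 and 0.525).

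The difference between the scales lies in the effective transcript length deposited for C1s1, which was 2889, 4047, 5038, 2395 and 4826 bases in control mice and 2081, 1699, 4999, 4195 and 2428 bases in HFD+mTAC mice. Its highest value was 2.96 times its lowest, a wider ratio than in 84.1% of genes tested, whose median was 1.42. Mouse TT-589, with 67.3 CPM, was given 5.14 TPM, whereas mouse TT-590, with 77.3 CPM, was given 2.07 TPM. C1s1 in TPM was 3.24 ± 1.03 in control and 4.18 ± 1.53 in HFD+mTAC mice, with 3 HFD+mTAC mice above and 1 below the control range (two-sided exact permutation test, p = 0.278, adjusted p = 0.843). With lengths as an offset in edgeR, the log2 fold change of C1s1 was 0.49 (adjusted p = 0.712) in place of 0.05. The lengths themselves did not differ detectably between the groups (two-sided exact permutation test, p = 0.349).

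**Figure D3:**
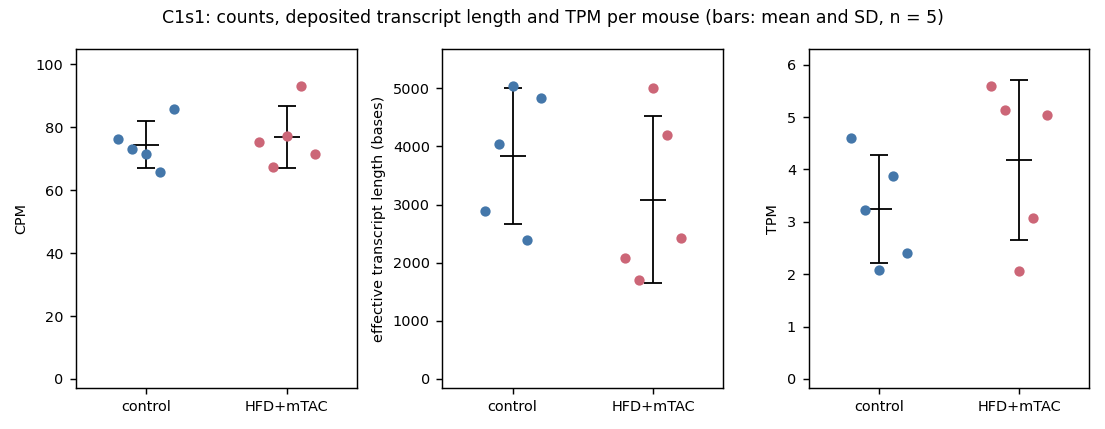
C1s1 in CPM (left), its deposited effective transcript length in bases (centre) and its TPM (right), 1 point per mouse, with mean and SD of 5 mice per group and axes from 0. CPM spans 65.8 to 93.1, whereas the length spans 1699 to 5038 bases and TPM follows it inversely.

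Both proteases have near-copies. Of the 31-base words of the annotated C1ra transcripts 59.3% also occur in other genes, 56.9% in C1rb, and of those of C1s1 33.5% occur in C1s2. The estimated counts of the copies were low: C1rb had 13 counts in control mouse TT-583, 2 in HFD+mTAC mouse TT-590 and 0 in the others, and C1s2 had at most 3 counts in any mouse. How reads shared between the copies were divided rests on the estimate by salmon and was not tested. C1s1 also overlaps Gm16567, an antisense gene on the plus strand, and C3 overlaps Mir6978 on its own strand. Whether the counting used strand is not given in the sources used here, so reads from such partners cannot be told apart. Under the same rule as above, the patterns most like C1ra were those of Tnrc6a (r = 0.992), Slc26a10 (0.966) and Fcho2 (0.956), and the patterns most like C1s1 were those of Aqp7 (0.984), Ptms (0.964) and Btnl9 (0.963).

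C3, on chromosome 17 from 57203970 to 57228136 on the minus strand, was at 250.3, 315, 308, 310.4 and 272 CPM in control mice and at 355, 254, 262, 232 and 281 CPM in HFD+mTAC mice. It had 3393 to 6299 counts per mouse. Mouse TT-588 was above and mouse TT-591 below the control range. The means were 291 ± 28.6 and 277 ± 47.0 CPM (SD, n = 5 each), a log2 difference of -0.07 (SE 0.12, edgeR adjusted p = 0.92) with an interval of 0.797 to 1.13 for the fold. Without TT-588 it was -0.18 (edgeR adjusted p = 0.725). Among the patterns most like it were those of Heatr1 (r = 0.933) and Zbtb38 (0.914).

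C4b, which encodes C4 and lies on the same chromosome from 34728380 to 34743882 on the minus strand, was at 27.2, 31.7, 24.7, 27.0 and 40.0 CPM in control mice and at 43.9, 26.3, 29.9, 30.5 and 33.8 CPM in HFD+mTAC mice. Control mouse TT-587 and HFD+mTAC mouse TT-588 were the highest of their groups. The log2 fold change was 0.13 (SE 0.16, edgeR adjusted p = 0.897), with an interval of 0.863 to 1.39 for the fold. Without TT-588 it was 0.0013, and without TT-587 it was 0.25 (edgeR adjusted p = 0.999 and 0.67). C4b shares 48.3% of its 31-base words with C4a, which was not analysed here, so part of its count may belong to that gene. The patterns most like C4b were those of Fah (r = 0.925), Abca1 (0.913) and Acvr2a (0.873).

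Cfd, on chromosome 10 from 79890853 to 79892655 on the plus strand, was near the limit of detection. It had 23 and 28 counts in control mice TT-583 and TT-587, 13 in HFD+mTAC mouse TT-590 and 0 in the other 7, which is 1.104, 2.20 and 1.00 CPM in the 3 mice with counts. A count of 0 allows up to 3 counts, or 0.144 to 0.236 CPM depending on the mouse, for counting error only. The gene therefore failed the filter, and its TPM gave no detectable difference (two-sided exact permutation test, p = 0.444, adjusted p = 0.843).

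Cfd is a gene of fat cells, and several other fat cell markers were scarce too. Of the 10 markers in the adipocyte list 7 failed the filter, with 0 to 14 counts of Adipoq (adiponectin), 0 or 1 of Plin1 (perilipin 1, on lipid droplets), 0 to 4 of Lep (leptin) and 0 of Ucp1 in every mouse. The 3 that passed were Cidea, with 424 to 858 counts, Slc36a2, with 321 to 755, and Car3, with 20 to 110. The summed list was 5.60 ± 1.69 TPM in control and 5.26 ± 0.90 in HFD+mTAC mice (SD, n = 5 each; two-sided exact permutation test, p = 0.69), of which Cidea, a lipid droplet protein gene, had a mean of 3.50 TPM. In CPM the direction of the summed list turned, with a log2 ratio of 0.28 (two-sided exact permutation test, p = 0.00794, not adjusted). Cidea did not overlap between the groups in CPM and had a log2 difference of 0.39 (edgeR adjusted p = 0.284). Cfd did not follow the list over the 10 mice (r = 0.0796, rho = 0.0671, permutation p = 0.841 and 0.869, adjusted 0.925 and 0.869), with 7 mice at 0.

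Serping1, on chromosome 2 from 84765387 to 84775444 on the minus strand, was at 175, 195, 162, 176 and 180 CPM in control mice and at 190.2, 155, 189.9, 199 and 187 CPM in HFD+mTAC mice. Mouse TT-591 was above the control range and mouse TT-589 below it. The means were 178 ± 11.96 and 184 ± 17.1 CPM (SD, n = 5 each), a log2 difference of 0.05 (SE 0.09, edgeR adjusted p = 0.923) with an interval of 0.912 to 1.18 for the fold. The patterns most like it were those of Serpina3n (r = 0.975), another serpin gene, Jak2 (0.946), a kinase of cytokine receptors, and Calm2 (0.931).

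Between genes, the inhibitor and C3 stood highest. In TPM over the 10 mice the order was Serping1 at 33.5 ± 5.90, C3 at 30.0 ± 7.62, C1qa at 12.3 ± 2.86, C1qb at 7.58 ± 2.05, C1qc at 5.00 ± 1.27, C1s1 at 3.71 ± 1.33, C4b at 3.36 ± 0.98, C1ra at 1.28 ± 0.23 and Cfd at 0.04 ± 0.07 (SD, n = 10 each). Serping1 was higher in mean TPM than 95.8% of genes tested, C3 than 95.4%, C1qa than 90.2% and C1ra than 55.9%. Neighbours in this order were compared within mice by a two-sided exact sign-flip test of the log2 ratio, of which the smallest p over 10 mice is 0.00195.

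Serping1 exceeded C3 in 8 of 10 mice (adjusted p = 0.0328), C1qc exceeded C1s1 in 7 of 10 (adjusted p = 0.0524) and C1s1 exceeded C4b in 5 of 10 (adjusted p = 0.641). The other neighbours down to C1ra kept their order in 10 of 10 mice (adjusted p = 0.00342 each). The order depends on the length used. In every mouse, deposited lengths exceeded the longest annotated transcript for 3 of the members and fell below it for 4. For Serping1 they were 712 to 904 bases against 1768, for C1qc 1358 to 1598 against 1203 and for Cfd 1443 to 1676 against 922. Deposited lengths of C3 were 1183 to 1979 bases and those of C4b 1078 to 2001, under the 5136 and 5379 bases of their longest transcripts in the annotation used here, and those of C1ra were 4200 to 5363 bases against 2981.

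On the scale of CPM per kilobase of the longest annotated transcript, the order was Serping1 at 102, C1qa at 67.8, C3 at 55.3, C1qb at 48.5, C1qc at 40.1, C1s1 at 25.7, C1ra at 13.5, C4b at 5.86 and Cfd at 0.467. Serping1 stayed first and Cfd last, whereas C1qa stood above C3 in 7 of 10 mice (exact sign-flip test, adjusted p = 0.0365) and C3 was not told from C1qb (5 of 10 mice, adjusted p = 0.16). On both scales C1qb exceeded C1qc in 10 of 10 mice.

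**Figure D4:**
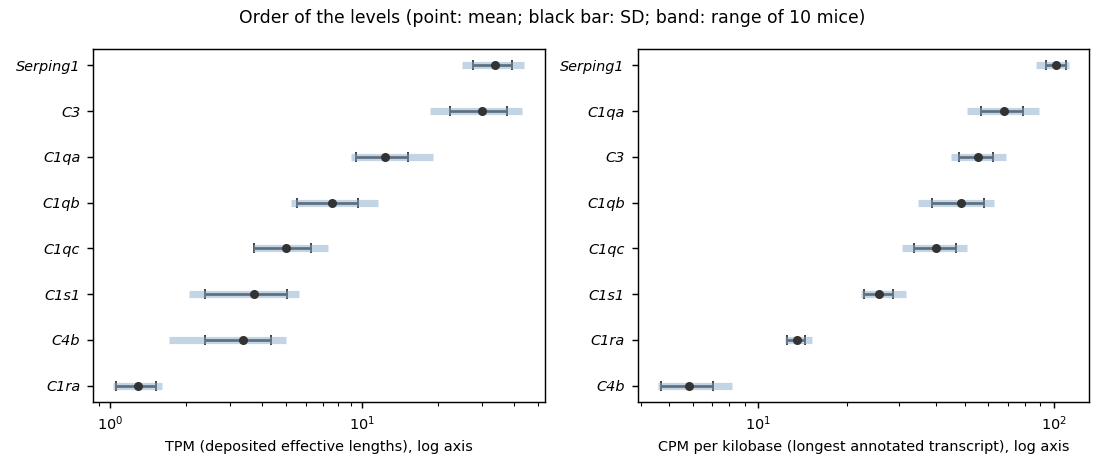
Levels of 8 complement genes on log axes, as TPM with the deposited lengths (left) and as CPM per kilobase of the longest annotated transcript (right), with the mean over 10 mice (point), SD (black bar) and range (band). Serping1 leads on both scales, whereas C3 changes places with C1qa, and C4b with C1ra.

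Summed over the 9 genes, complement TPM was 97.8 ± 21.3 in control and 95.8 ± 17.2 in HFD+mTAC mice (SD, n = 5 each; two-sided exact permutation test, p = 0.865). The sum of the C1q chains was 25.8 ± 8.67 and 24.0 ± 2.58 TPM (p = 0.659 by the same exact test). All 5 HFD+mTAC mice were inside the control range for both sums. Among lists of other sources of complement RNA or of other tissue, the hepatocyte list was at 3.32 ± 3.80 TPM in control and 2.09 ± 1.17 in HFD+mTAC mice (p = 0.667 by the exact permutation test), the blood list at 381 ± 257.5 and 307 ± 260 (p = 0.595), and the mesothelial list, with Msln at 0 in every mouse, at 3.15 ± 1.89 and 3.37 ± 0.95 (p = 0.833, same exact test, SD, n = 5 each). The endothelial list was at 107 ± 27.6 and 101 ± 27.8 TPM and the smooth muscle list at 30.1 ± 11.95 and 21.4 ± 9.37 TPM (exact permutation tests, p = 0.714 and p = 0.238, SD, n = 5 each). Adjusted over 26 values, p was 0.843 for each of these lists but the mesothelial one, at 0.865.

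Whether C1ra, C1s1, C3, C4b and Serping1 followed the fibroblast list of 10 markers depended on the gene and the scale. The list was at 141 ± 34.4 TPM in control and 120 ± 21.4 in HFD+mTAC mice (SD, n = 5 each; two-sided exact permutation test, p = 0.262). In TPM it followed C4b (r = 0.776, rho = 0.758, permutation p = 0.00832 and 0.0151, adjusted 0.0183 and 0.0331) and, by r alone, C1ra (r = 0.715, rho = 0.636, permutation p = 0.019 and 0.0558, adjusted 0.0348 and 0.102). Without the 2 extreme mice these r were 0.522 and 0.567. In CPM neither relation was seen (r = 0.11 and 0.172, permutation p = 0.762 and 0.63).

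With Serping1 the list had r = 0.636 and rho = 0.503 in TPM (permutation p = 0.0473 and 0.146, adjusted 0.0744 and 0.229) and r = 0.705 and rho = 0.479 in CPM (permutation p = 0.0243 and 0.167, adjusted 0.0446 and 0.262). With C3 the values in TPM were r = 0.48 and rho = 0.394 (permutation p = 0.16 and 0.261, adjusted 0.221 and 0.359), and with C1s1 they were -0.02 and -0.12 (permutation p = 0.952 and 0.757, adjusted 0.952 and 0.833). Without the 2 extreme mice r in TPM was 0.58 with Serping1, 0.528 with C3 and 0.121 with C1s1.

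Of 51 other genes of the complement system set beside the members, 50 were listed and 33 passed the filter. Of these 33, 0 passed an adjusted p of 0.05 in edgeR (against 0.0602% of all genes). An unadjusted p under 0.05 was found for 5 (against 8.26% of all genes), and DESeq2 called 1 (against 0.902% of all genes). The list split into 14 higher and 19 lower genes, with a median log2 fold change of -0.04 against 0.00 over all genes. By role, 2 of 4 lectin pathway genes, 1 of 3 terminal pathway genes, 2 of 9 receptors and 0 of 14 regulators had an unadjusted p under 0.05, and so did 0 of 2 alternative pathway genes and 0 of 1 classical pathway gene. Of all genes tested, 8.26% were under that p. Roles are those assigned in the list, and the 2 lectin pathway genes were Fcna and Colec12, a scavenger receptor (below). At most 3 counts in any mouse were found for 8 of the genes.

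Calr encodes calreticulin, a chaperone of the endoplasmic reticulum that can serve as a C1q receptor at the cell surface. It was at 686, 797, 700.0, 590.7 and 575 CPM in control mice and at 474, 505, 541, 500 and 545 CPM in HFD+mTAC mice, with every HFD+mTAC mouse below every control mouse. The log2 fold change was -0.39 (SE 0.10), which did not pass in edgeR (adjusted p = 0.261) and passed in DESeq2 (adjusted p = 0.0309). Over all alternatives its adjusted p ran from 0.0309 to 0.857. In TPM the groups overlapped, at 47.6 to 112 in control and 47.4 to 80.3 in HFD+mTAC mice.

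Colec12, a scavenger receptor with a collectin domain, was at 21.4, 18.9, 22.5, 19.6 and 19.4 CPM in control mice and at 23.6, 26.8, 29.6, 26.9 and 24.6 CPM in HFD+mTAC mice. All HFD+mTAC mice were above all control mice, and the log2 fold change of 0.37 (SE 0.10) did not pass (adjusted p = 0.261 in edgeR and 0.0567 in DESeq2). Colec11, a soluble collectin and the lectin pathway gene with the highest mean TPM (4.82), had a log2 difference of 0.26 (edgeR adjusted p = 0.767).

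Fcna, which encodes ficolin A of macrophages, was at 2.25 to 5.19 CPM in control and 1.35 to 3.08 CPM in HFD+mTAC mice, with 21 to 108 counts. On the log2 scale the groups differed by -0.96 (SE 0.31, adjusted p = 0.384 from edgeR). C7, of the membrane attack complex, was at 11.1 to 19.1 CPM in control and 3.93 to 14.9 CPM in HFD+mTAC mice, a log2 difference of -0.76 (SE 0.29, edgeR adjusted p = 0.4875). C5ar1, the receptor for C5a, had a log2 difference of -0.41 (SE 0.16, edgeR adjusted p = 0.504) and is named because the count of 5 was to be complete. For these 3 genes the values of the groups overlapped.

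Itgax, a chain of complement receptor 4, had a log2 fold change of 0.86 at about 1 CPM (SE 0.45, adjusted p = 0.666 from edgeR). Clu, which encodes clusterin, a fluid-phase inhibitor of the membrane attack complex, was the most abundant regulator at a mean of 187 TPM and had a log2 difference of -0.19 (SE 0.10, edgeR adjusted p = 0.656). Of the alternative pathway genes, Cfp, which encodes properdin, had the highest mean TPM (0.987) and a log2 difference of -0.28 (SE 0.25, edgeR adjusted p = 0.841). C2, cut by C1s, was at 0.788 ± 0.387 CPM in control and 0.732 ± 0.329 in HFD+mTAC mice (SD, n = 5 each; log2 fold change -0.07, adjusted p = 0.983 from edgeR). Its direction turned with transcript lengths as an offset (0.97, edgeR adjusted p = 0.859) and in limma on log2(TPM + 1) and log2(TPM + 0.1) (0.36 and 0.78, adjusted p = 0.893 and 0.891).

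**Figure D5:**
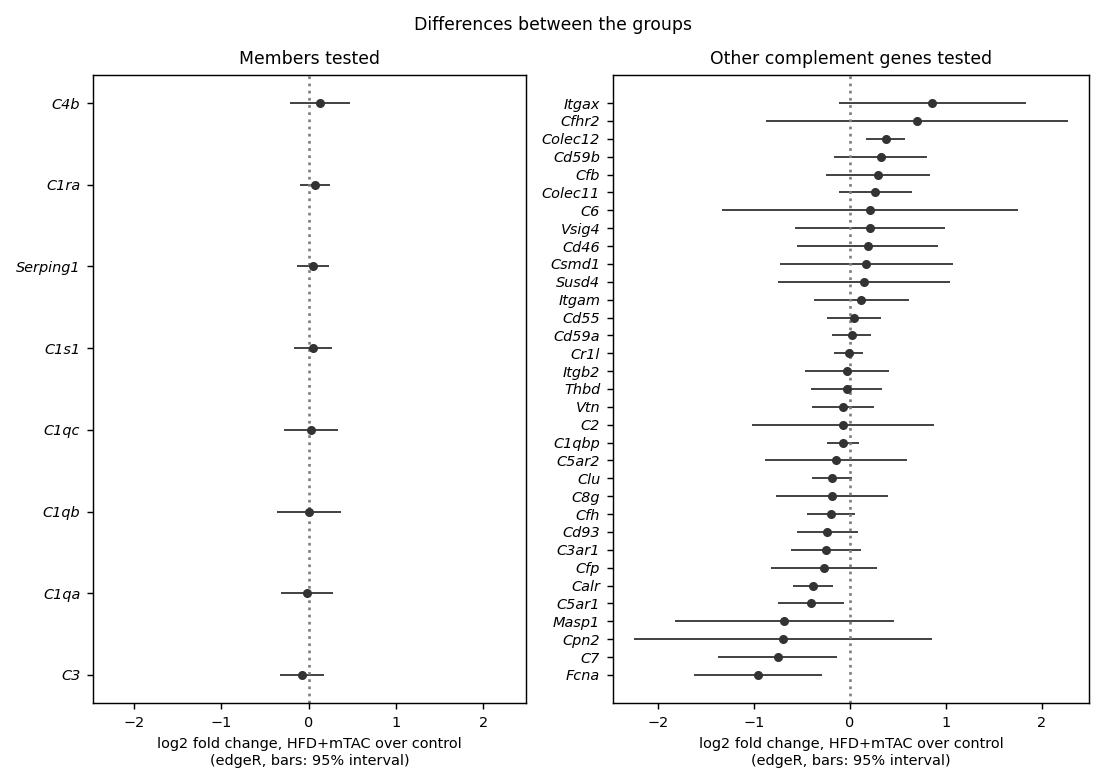
Log2 fold change, HFD+mTAC over control, with its 95% interval from edgeR, for the 8 members tested (left) and the 33 other complement genes tested (right), on the same horizontal scale. Every member interval crosses 0, and all lie between -0.36 and 0.47, whereas intervals of the wider list reach from -2.25 (Cpn2) to 2.27 (Cfhr2).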

How the data were processed

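Polyadenylated RNA of left ventricles was sequenced from a stranded kit, 5 mice per group as the sample labels give them. The authors trimmed reads with fastp, quantified transcripts with salmon 1.6.0 (version also in the submitters' processing notes) with its corrections for sequence, GC and position bias, which alter effective lengths, and summed them to genes with tximport. The authors deposited expected counts (estimated counts, 20.07% of them not whole numbers), TPM (scaled within each mouse and divided by transcript length) and average effective transcript lengths in bases. The study's methods name mouse GRCm38 with paired-end reads, the labels a human build and single-end reads, and the gene symbols are those of mouse.

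Rounded counts of protein-coding genes outside the mitochondrial genome with at least 1 count in 9 of 10 mice were tested with edgeR 4.0.16 (TMM, quasi-likelihood, Benjamini-Hochberg over 13298 genes, adjusted p under 0.05) in R 4.3.3, without covariates. Coordinates and biotypes come from GENCODE M21, which 27862 of 29564 symbols matched directly and 860 through an older symbol. Single values per mouse were compared by exact permutation over 252 arrangements, with a smallest p of 0.00794, and correlations by 100000 permutations. Intervals are at 95%. Any 2 libraries of a group differed by a chi-square per degree of freedom of at least 12.9, so none was another library sequenced again. That each library came from a different mouse rests on the labels. Depth was 34.2 to 53.7 M counts per mouse. Alternatives were DESeq2 1.42.0, limma 3.58.1 on TPM, other normalizations and filters, length offsets and the omission of each mouse. The CPM correlations and the annotated-length order were added after the data were seen. The members, lists and tests were chosen with earlier results of these data known. Named genes were the members, the listed complement genes with the smallest p in each direction or the highest mean TPM in a role, near-copies of members, and the 3 genes most like each member, of which 1 is not reported here.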

Additional observations from a re-analysis of the deposited data

Results flagged for a closer look

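In 5 of 40 groups of 5 mice examined, the gap between the highest or lowest mouse and its nearest neighbour was above Dixon's critical share of 0.71 of the whole range, which chance gives in about 1 of 20 groups. Among the members, C1ra was at 45.3 CPM in control mouse TT-587 and at 36.8 to 39.0 in the other control mice, and Serping1 was at 155 CPM in HFD+mTAC mouse TT-589 and at 187 to 199 in the others of its group. The hepatocyte list was at 10.1 TPM in control mouse TT-583 against 1.20 to 1.95, with Alb (albumin) at 513 counts there, and at 4.15 TPM in HFD+mTAC mouse TT-591 against 1.37 to 1.76. The blood list was at 758 TPM in mouse TT-591 against 89.9 to 253 in the other HFD+mTAC mice. In mouse TT-591, C1s1 (93.1 CPM) and Serping1 (199 CPM) lay above the control range and C3 (232 CPM) below it. The part of blood or liver RNA in any complement value was not tested.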

How the results depend on the processing

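No member passed an adjusted p of 0.05 under any alternative, and the lowest adjusted p of any was 0.669, for C1ra. No paired analysis was possible because the mouse numbers in the labels are not shared between the groups. The log2 fold change of C1qb, near 0, was -0.0012 with DESeq2's size factors, -0.00071 with DESeq2, -0.0028 with a filter of 1 count in 1 mouse and -0.0016 with all biotypes. With limma on log2(TPM + 1), log2(TPM + 0.1) and with lengths as an offset, C1qa was at 0.105, 0.106 and 0.062, C3 at 0.0488, 0.0489 and 0.018, and C4b at -0.058, -0.060 and -0.13. DESeq2 called 1 gene of the wider complement list, Calr. With each mouse left out in turn, log2 fold changes ran from -0.10 to 0.10 for C1qa, -0.095 to 0.12 for C1qb, -0.052 to 0.13 for C1qc, -0.034 to 0.10 for C1s1, -0.18 to -0.019 for C3 and 0.0013 to 0.25 for C4b, and log2 ratios of sums from -0.11 to 0.094 for the members, -0.21 to 0.078 for the C1q chains, -0.19 to 0.034 for the adipocyte list, -0.13 to 0.48 for the mesothelial, -1.08 to 0.36 for the hepatocyte, -0.97 to 0.13 for the blood and -0.21 to 0.037 for the endothelial list.

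In TPM renormalized over the genes tested the log2 ratio was 0.13 for the summed members, 0.088 for the C1q chains, 0.088 for the adipocyte, 0.060 for the endothelial, -0.67 for the atrial and -0.093 for the cardiomyocyte list. In CPM it was 0.0037 for the C1q chains, 0.0075 for the macrophage, 0.28 for the adipocyte (exact permutation test, p = 0.00794), -0.12 for the mesothelial, 0.051 for the endothelial and -0.35 for the atrial list. The cardiomyocyte list was at -0.22 in CPM (exact permutation test, p = 0.00794). After centring each group the fibroblast list had r = 0.11 with C1s1 and 0.722 with Serping1. In CPM it had r = 0.172 with C1ra, 0.547 with C1s1, -0.42 with C3, 0.11 with C4b and 0.705 with Serping1, while C1ra with C1s1 had 0.81 and the adipocyte list with Cfd -0.44. The cause of these shifts was not tested. With 5 mice per group, a change of a member within its interval remains possible. An interval clear of no change need not pass the adjusted p over all genes. For Fcna the interval of the fold ran from 0.324 to 0.817 (edgeR adjusted p = 0.384).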
